A study of Mus musculus with 272 samples.

Results

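Open chromatin of muscle stem cells (MuSCs) was mapped by ATAC-seq in 2 libraries, which are 2 of the 272 samples of the series and 2 of its 8 with a peak list. MuSCs are the resident stem cells of skeletal muscle. The cells were sorted by their GFP from the digested hindlimb muscles of Pax7Cas9 mice, in which Pax7-driven Cre turns on Cas9 and GFP from a Cre-dependent knockin, so that both libraries carry Pax7Cre and the Cas9 allele and neither is a control for the other. Age, sex, any injected virus and whether the 2 replicates came from separate animals are not given for these libraries in the sources used here, so that the spread between replicates may be technical. The members are all peaks of the deposited lists on the 21 assembled chromosomes of mm10, 140716 in replicate 1 and 94382 in replicate 2, and no measured value was used to choose them. The lists hold no read numbers, and depth is therefore unknown.

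In ATAC-seq a transposase cuts DNA that is not wrapped in nucleosomes or packed away, and sequencing of the cut ends piles up reads over open sites. Open sites are known to mark the promoters of genes that can be transcribed, and also enhancers and insulators, where transcription factors hold nucleosomes off the DNA. In MuSCs the known regulators include PAX7, which marks the cell, and the myogenic bHLH factors MYF5 and MYOD1, which bind E-boxes. The fold enrichment of a peak is the value given by the authors' peak caller MACS2 for its summit, the base with the most reads, over the local background.

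The 11 open sites that carry the results are shown as sequence from GRCm38.p6, plus strand, 50 bp either side of the replicate 1 summit. Capitals mark matches to the motifs searched. The first 4 are the strongest sites found in both replicates, ranked by the lower of the 2 fold enrichments: the first of each location class, with the promoter site ranked above 1700015G11Rik left out of the sequences, and 1 further promoter site that holds a searched motif.
1700015G11Rik promoter, chr7:52018070-52018170: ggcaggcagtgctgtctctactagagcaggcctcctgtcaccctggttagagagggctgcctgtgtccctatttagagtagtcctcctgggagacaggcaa
Gm28000 promoter, Crlf2 the nearest protein-coding gene, chr5:109599021-109599121: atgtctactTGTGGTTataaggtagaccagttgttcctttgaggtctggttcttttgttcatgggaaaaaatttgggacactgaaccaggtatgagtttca
Timd2 intron, chr11:46675884-46675984: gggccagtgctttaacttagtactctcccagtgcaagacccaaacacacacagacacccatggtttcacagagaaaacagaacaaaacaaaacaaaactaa
intergenic site nearest to Oxr1, chr15:41276936-41277036: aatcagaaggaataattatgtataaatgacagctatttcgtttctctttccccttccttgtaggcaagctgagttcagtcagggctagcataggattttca
The other 7, chosen after their values had been seen, are the strongest replicate 1 promoter peaks of 3 MuSC genes and the strongest sites with an AP-1, CAGCTG, CTCF or SP/KLF match.
Pax7, chr4:139833149-139833249: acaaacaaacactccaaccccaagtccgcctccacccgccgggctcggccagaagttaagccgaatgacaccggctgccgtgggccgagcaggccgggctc
Myf5, chr10:107488671-107488771: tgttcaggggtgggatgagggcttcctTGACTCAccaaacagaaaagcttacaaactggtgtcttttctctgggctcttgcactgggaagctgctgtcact
Myod1, chr7:46376224-46376324: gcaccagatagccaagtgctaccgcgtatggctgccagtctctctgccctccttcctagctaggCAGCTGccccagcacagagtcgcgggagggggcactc
AP-1, nearest to Qk, chr17:10268604-10268704: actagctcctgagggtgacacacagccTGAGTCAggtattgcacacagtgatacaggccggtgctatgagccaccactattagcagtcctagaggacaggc
CAGCTG, nearest to Gm11084, chr2:73012845-73012945: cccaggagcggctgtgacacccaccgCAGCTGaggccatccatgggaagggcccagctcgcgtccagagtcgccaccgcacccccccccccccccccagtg
CTCF, nearest to Phlda3, chr1:135753087-135753187: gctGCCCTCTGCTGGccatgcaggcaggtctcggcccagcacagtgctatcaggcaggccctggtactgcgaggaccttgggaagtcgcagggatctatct
SP/KLF, nearest to Entpd1, chr19:40723700-40723800: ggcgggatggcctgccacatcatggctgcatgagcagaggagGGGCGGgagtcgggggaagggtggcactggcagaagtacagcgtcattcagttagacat

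Before the results, replicate 1 stood apart in its strongest peaks. Of its peaks with a fold enrichment of 20 or more, 3734 had no overlapping peak in replicate 2 and 2749 had one, whereas all 1980 such peaks of replicate 2 had a counterpart in replicate 1. The 58 strongest peaks of replicate 1 lacked a counterpart, and only 3 of its 100 strongest had one, against 100 of 100 in replicate 2. The 3734 peaks were narrow, with a median width of 118 bp and a 95th percentile of 158 bp, and their summit windows had a median GC content of 38.3%. The 2749 peaks with a counterpart had a median width of 469 bp and a GC content of 60.7%. Of the 3734 peaks, 13.7% lay in promoters, 39.4% in gene bodies and 46.8% between genes, near the 15.5%, 35.4% and 49.1% of the sequenced genome in these classes, and 5.92% lay on chromosome X, which holds 6.18% of the bases. No peak of any of the 6 ChIP-seq lists touched 98.1% of them. The same share was 67.8% over all replicate 1 peaks and 88.2% over all of those without a counterpart. The 3734 peaks make up 2.65% of the replicate 1 list, and what gave rise to them was not tested. The location shares, the difference in fold enrichment between classes, the ratio of X to autosomes and the genes richest in peaks are given below also for peaks found in both replicates, or without the 3734. The values by distance, of repeats, of 100 kb windows and of gene families were not recomputed without them.

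**Figure D1:**
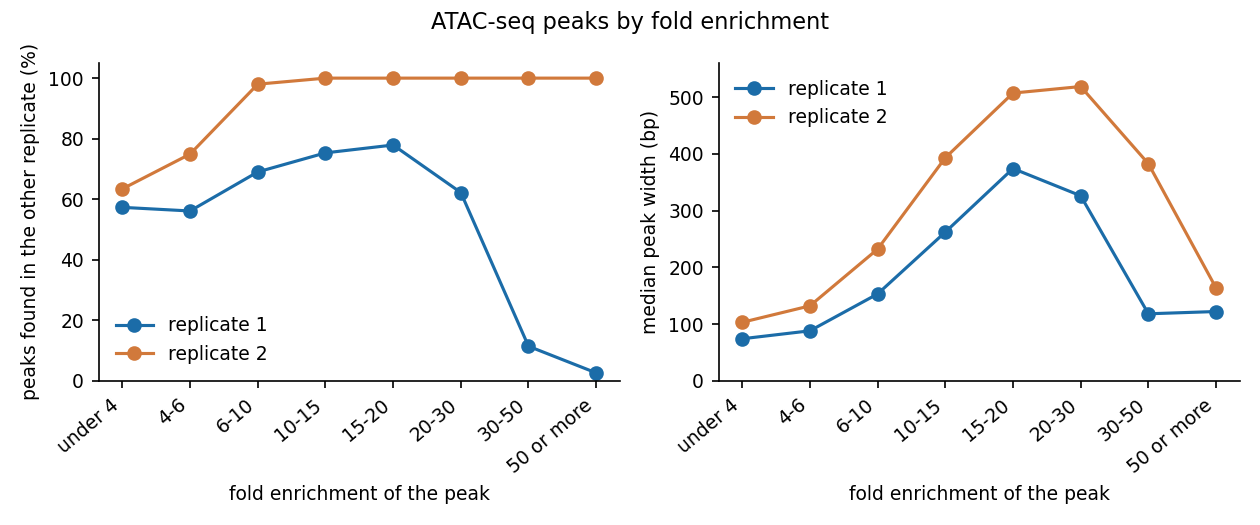
Share of ATAC-seq peaks found in the other replicate from 1 bp of overlap (left, in %) and median peak width (right, in bp) by bins of the fold enrichment of the peak, with a line for each replicate. In replicate 2 the share reached 100% from a fold of 10, whereas in replicate 1 it was highest, at 77.9%, from 15 to 20 and 2.6% from 50 upward, where the peaks were 122 bp wide.

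Open sites were concentrated in promoters, here 3 kb either side of any transcription start site of GENCODE M21. Promoters held 38.2% of the peaks in replicate 1 and 42.3% in replicate 2 (mean 40.2% ± 2.9, SD, n = 2), although they make up 15.5% of the sequenced genome. Gene bodies held 34.6% and 33.8% (mean 34.2% ± 0.566, SD, n = 2) against 35.4% of the genome, and intergenic sequence held 27.3% and 24% (mean 25.6% ± 2.33, SD, n = 2) against 49.1%. As densities, promoters had 131 and 97.1 peaks per Mb, gene bodies 51.8 and 34, and intergenic sequence 29.6 and 17.4. The order of the 3 densities was the same in both replicates, and replicate 1 was higher in all 3 classes. Among peaks found in both replicates the mean promoter share was 44.5%. By the part of a gene that holds the summit, introns held 47.9% and 48.5% of the peaks, UTRs 7.32% and 8.46%, and coding exons 4.7% and 4.05%.

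**Figure D2:**
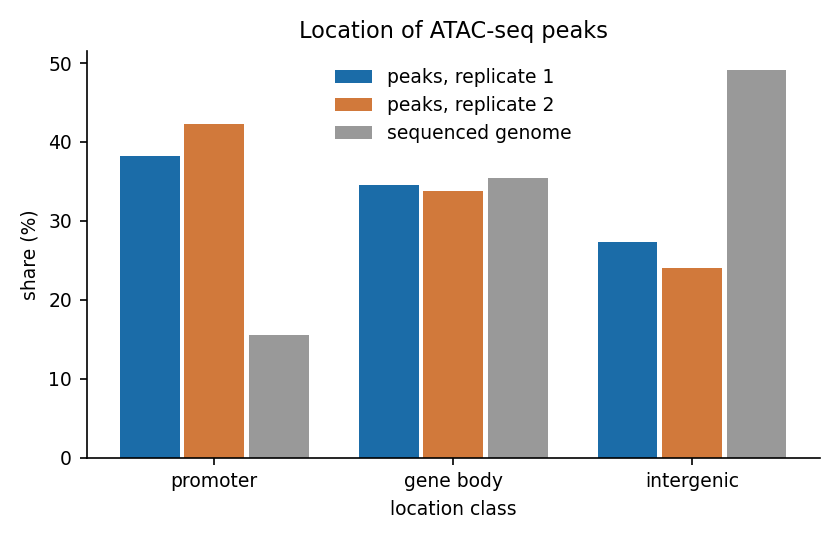
Share in % of ATAC-seq peaks of each replicate in promoters, gene bodies and intergenic sequence (coloured bars), beside the share of the sequenced genome in each class (grey bars). Promoters hold 38.2% and 42.3% of the peaks and 15.5% of the genome.

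Promoter peaks were wider, with medians of 145 bp in replicate 1 and 219 bp in replicate 2, than those in gene bodies (109 and 169 bp) and between genes (107 and 173 bp). The peaks in promoters therefore held 49.6% and 52.7% of all bases covered. The lists covered close to equal parts of the sequenced genome, 0.952% and 0.905%, since replicate 1 had more but narrower peaks, with medians of 117 and 185 bp over all peaks. Peaks of 1 kb or more numbered 378 and 755, and 97.4% and 96.6% of them were in promoters. Nearly all peaks of 500 bp or more had a counterpart in the other replicate, whereas of those under 150 bp 42.2% had one in replicate 1 and 64.1% in replicate 2.

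Within promoters, openness was highest at the start site itself. Peaks with the summit under 100 bp from the nearest start site, 10.6% and 13.5% of the lists, had median fold enrichments of 9.96 and 10.1 and median widths of 307 and 419 bp. At 250 to 500 bp the medians were 4.91 and 4.86, and at 10 to 50 kb, the distance bin with the most peaks, they were 6.13 and 5.86. The fold enrichment thus was not lowest far from genes but between 250 and 500 bp from the start site, in both replicates. Measured from protein-coding start sites and along the direction of transcription, the 50 bp bin with the most summits was the one just upstream, from -50 to 0 bp, with 5198 and 4789 summits. Neighbouring summits were most often 220 to 240 bp apart in replicate 1 and 240 to 260 bp apart in replicate 2.

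The median fold enrichment did not separate the location classes. It was 6.07 and 6.15 in promoters and 6.22 and 5.86 between genes, so that promoters were lower in replicate 1 (by -0.159) and higher in replicate 2 (by 0.291). The upper ends differed between replicates: the 99th percentile between genes was 59.2 in replicate 1 and 20.9 in replicate 2, and in promoters it was 27.8 and 24.1. Among peaks found in both replicates the mean difference of promoter minus intergenic medians was 0.333, and with promoters drawn at 1 kb it was 0.514.

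Promoter sites were also the most alike between the libraries. In promoters 74.5% of replicate 1 peaks and 88.1% of replicate 2 peaks shared 1 bp or more with a peak of the other list, against 58.1% and 81.8% in gene bodies and 53% and 83% between genes. Of the whole lists, 88575 replicate 1 peaks and 79968 replicate 2 peaks had a counterpart. One wide peak often met several narrow ones, since 10.5% of replicate 2 peaks lay over 2 peaks of replicate 1 and 1.11% over 3 or more. Peaks without a counterpart were narrow, with median widths of 82 and 99 bp, and 26.3% and 33% of them lay in promoters.

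The base composition of the sites followed the location. Windows of 100 bp either side of the summit had median GC contents of 57.7% and 59.2% in promoters, 50.7% and 52.2% in gene bodies and 49.8% and 52.2% between genes, against 41.7% over the genome. CpG dinucleotides, which are depleted from most of the genome outside CpG islands, had a median ratio of observed to expected number of 0.481 and 0.512 in promoters and of 0.196 and 0.223 between genes. Repeat-masked sequence makes up 36.4% of the genome, and held the summit of 6.95% and 5.67% of promoter peaks and of 12.1% and 7.32% of intergenic peaks. Of the 3734 strong replicate 1 peaks without a counterpart it held 23.9%.

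The motifs in the summit windows differed between promoters and other sites. Outside promoters the letters TGACTCA (AP-1, the site of FOS and JUN dimers) were in 16.2% of replicate 1 and 21.4% of replicate 2 windows, against 3.23% and 3.19% of windows of the same length 2 kb from the summit that touched no ATAC-seq peak, and 3.03% of windows every 20 kb along the genome. The E-box CAGCTG, bound by myogenic bHLH factors, was in 24.3% and 31.5% of the windows outside promoters, against 8.82% and 9.42% of flanking windows and 7.08% of windows along the genome. The E-box CAGGTG was in 13.2% and 12.9%, against 13.9% and 14.8% of flanking windows, so that both E-boxes differed in their relation to the flanks. The core of the CTCF site, the factor of insulators and loop anchors, was in 2.74% and 3.8% of summit windows and in 0.0932% and 0.0962% of flanking ones. Motifs were searched on both strands, a palindrome such as CAGCTG once, and a match is a description and not a bound site.

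In promoters the GC box was the most frequent of the motifs searched. The GC box GGGCGG of SP and KLF factors was in 31.9% and 34.2% of promoter windows against 3.63% and 3.62% of their flanks, and CCGGAAG of ETS factors was in 5.27% and 6.18% against 0.954% and 0.904%. NRF1 (GCGCATGCG) matched in 0.676% and 0.705% against 0.0415% and 0.0347%, and YY1 (AAGATGGCG) in 0.831% and 0.875% against 0.0949% and 0.0867%. These motifs are rich in G and C, as were the promoter windows, with 58.9% and 60.1% GC against 45.7% and 45.8% in the flanks, and what part of the difference base composition accounts for was not tested. Motifs described above for distal sites were in promoter windows too, CAGCTG in 18.9% and 21.2% against 9.22% and 9.12%, AP-1 in 8.89% and 10.2% against 3.21% and 3.19%, and CRE in 0.957% and 0.983% against 0.143% and 0.14%. CTCF was in 1.93% and 2.26% against 0.102% and 0.0867%, and its ratio to the flanks, 19 and 26.1, was the highest of the motifs searched in promoters.

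Of the motifs of factors known from other cell types, those of GATA and HNF1 were below their flanks and that of PU.1 was above them. Outside promoters AGATAA of GATA factors, known in blood and endothelium, was in 8.07% and 5.91% of windows against 11.5% and 10.8% of flanks, and GTTAATNAT of the liver and kidney factor HNF1 was in 0.4% and 0.228% against 0.551% and 0.492%. GAGGAAGT of the myeloid factor PU.1 was in 2.15% and 2.7% against 1.27% and 1.3%, at ratios of 1.69 and 2.08 to the flanks. MEF2 (CTATTTATA), known in differentiated muscle, was in 0.24% and 0.229% against 0.245% and 0.216%. TEAD (GGAATG) was in 13.5% and 14.2% against 10.8% and 10.7%, the NFI half-site TTGGCA in 14.4% and 15.6% against 9.89% and 9.79%, and RUNX (TGTGGTT) in 5.28% and 5.5% against 4.98% and 5.06%. The ratio to the flanks was thus between 1.06 and 1.6 for the last 3 motifs and both replicates. Of the remaining motifs outside promoters, CRE (TGACGTCA) was in 0.394% and 0.477% against 0.13% and 0.137%, and the nuclear receptor half-site AGGTCA in 14% and 15.2% against 12.4% and 12.9%. The motifs described for promoters were present here too, SP/KLF in 6.7% and 7.38% against 2.39% and 2.67%, at ratios of 2.81 and 2.76. ETS was in 1.39% and 1.63% against 0.667% and 0.706%, and NRF1 in 0.107% and 0.108% against 0.0281% and 0.0327%. YY1 was in 0.121% in both replicates, against 0.118% and 0.0943%. The forkhead motif TGTTTAC was in 2.84% and 2.7% against 2.82% and 2.73%, STAT (TTCCNNGAA) in 3.03% and 2.8% against 2.93% and 2.96%, NF-Y (CCAATCA) in 2.17% and 1.99% against 2.27% and 2.15%, and SRF in 0.958% and 0.905% against 1.03% and 0.984%. These 4 motifs thus were about as frequent at summits as in the flanks. Windows outside promoters had 49.5% and 52.3% GC, against 44.5% and 45.4% in the flanks. What part of the motif differences outside promoters base composition accounts for was not tested. The GATA motif was below its flanks in promoters too, with 4.47% and 3.66% against 10.4% in both. Among the 3734 strong replicate 1 peaks without a counterpart it was in 17.3% of windows outside promoters.

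The AP-1, CAGCTG and CTCF matches outside promoters sat at the summit. Among peaks found in both replicates, AP-1 matches within 50 bp of the summit were 7.61 and 8.57 times as frequent per base as those 400 to 500 bp away, CAGCTG matches 3.86 and 3.93 times and CTCF matches 31.5 and 43.7 times. In promoters SP/KLF matches were 2.33 and 2.64 times as frequent. Outside promoters stronger sites held AP-1 more often: with the sites split into 4 equal groups by the lower of the 2 fold enrichments, from weak to strong, 15.4%, 19.2%, 22.3% and 30.7% of replicate 1 windows outside promoters held AP-1, and 16.1%, 20.5%, 23.4% and 30.6% of replicate 2 windows. For CAGCTG the weakest and strongest groups gave 28.7% and 37.6% in replicate 1 and 29% and 38.4% in replicate 2. In promoters SP/KLF was in 28.7% of the weakest and 54.4% of the strongest group in replicate 1, and in 28.5% and 54.5% in replicate 2, and ETS went from 2.99% to 14.2% and from 2.61% to 15.1%. In promoters AP-1 did not follow this order, with 7.78%, 10.8%, 11.7% and 8.38% over the 4 groups of replicate 1 and 8.77%, 12%, 12.3% and 8.03% in replicate 2, and CAGCTG was lowest in the strongest group, at 17.6% and 17%. CTCF matches outside promoters did not follow it either, with 2.66%, 4.21%, 4.88% and 4.17% over the 4 groups of replicate 1. Among the 3734 strong peaks of replicate 1 without a counterpart, AP-1 was in 4.07%, CAGCTG in 6.21% and CTCF in 0.0621% of windows outside promoters, near or under the flanking values.

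**Figure D3:**
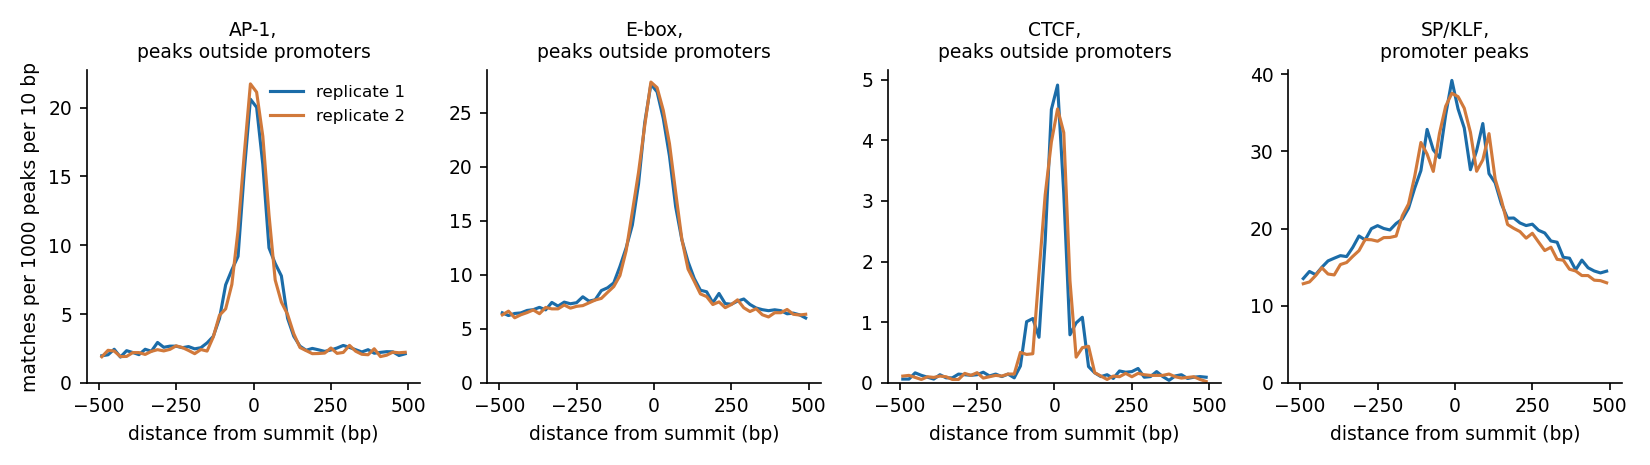
Motif matches per 1000 peaks and 10 bp, in bins of 20 bp from 500 bp before to 500 bp after the summit, for ATAC-seq peaks found in both replicates, with a line for each replicate. AP-1, the E-box of myogenic factors and CTCF (peaks outside promoters) and SP/KLF (promoter peaks) peak at the summit, with 7.61 and 8.57 times as many AP-1 matches per base within 50 bp as at 400 to 500 bp.

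The strongest sites found in both replicates were narrow, and none of their nearest genes was on the MuSC list. The highest lower value was in an intron of Timd2, which encodes a cell surface receptor, with fold enrichments of 102 and 88.3 and widths of 173 and 191 bp, and it was the strongest peak of replicate 2 and the 59th of replicate 1. The strongest promoter-class site, at an annotated 5.8S ribosomal RNA gene (n-R5-8s1) on chromosome 18, had 97.2 and 87.9, and its nearest protein-coding gene was Mex3c. The site nearest to 1700015G11Rik, at -2392 bp from its start site (negative is upstream), had 80.5 and 73.6. The site at Gm28000, with Crlf2 as the nearest protein-coding gene at -40078 bp, had 70.6 and 66. In gene bodies the next were sites nearest to Gtpbp4, a GTPase of ribosome assembly, with 83.3 and 77, and in an intron of Xrcc6, 3370 bp into the gene, which encodes the Ku70 subunit of the end-joining machinery, with 56.3 and 55.7. Between genes the sites with Oxr1, Tox and Ttll7 as the nearest protein-coding genes had 100 and 82.2, 92.8 and 76.7, and 90.6 and 73.8. These 3 sites lay far off, at -170496, -400249 and 919604 bp, and start sites of genes not classed as protein-coding were nearer. Of the 9 sites, the one at Gm28000 alone held a searched motif within 50 bp of the summit, a RUNX match, with the site on chromosome 18 not searched. Widths of the 9 sites were 116 to 236 bp in replicate 1 and 144 to 258 bp in replicate 2. The first site of each class, at n-R5-8s1, in Timd2 and nearest to Oxr1, had its summit in repeat-masked sequence. In replicate 2 the 18 peaks of fold 50 or more had medians of 163.5 bp and 46% GC, with 33.3% in promoters. Its peaks of fold 20 to 30 had 518.5 bp, 59.7% and 67.5%. What gave rise to the strongest sites was not tested.

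Chromosome 11 was the most densely open and the sex chromosomes the least. Chromosome 11 had 82.5 and 58.1 peaks per Mb and chromosome 14, the lowest autosome, 42.1 and 27, against 57.4 and 38.7 over all autosomes. Replicate 1 was higher on all 19 autosomes, by ratios of 1.42 to 1.56, and the order of the autosomes was nearly the same (Spearman's rho 0.995 over 19 chromosomes). Peaks per Mb followed annotated start sites per Mb, with a rho of 0.835 and 0.853, and GC content, with 0.917 and 0.913. These are descriptions over chromosomes that share their library, and gene density and GC content go together along the genome. Chromosomes 19 and 17, also rich in start sites, followed with 72.7 and 51.1, and 70.2 and 48.4.

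Chromosome X had 19.7 and 9.64 peaks per Mb, which is 0.344 and 0.249 of the autosomal density, whereas its start sites were at 0.546 of the autosomal density. Replicate 1 exceeded replicate 2 by 2.05 times on X. Of its X peaks 47.5% had a counterpart, against 59.2% to 66.4% on single autosomes, and 221 of the 3734 strong peaks without a counterpart were on X. Promoters held 43.1% of X peaks in replicate 1, below the 45.8% of chromosome 7, and 59.1% in replicate 2, above every autosome (36.1% to 48.4%). Outside promoters X had 11.2 and 3.94 peaks per Mb, and autosomes had 27.4 to 47.7 and 15.9 to 31.6. Among peaks found in both replicates the mean ratio of X to autosomes was 0.254. The Y chromosome had 22 and 5 peaks.

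**Figure D4:**
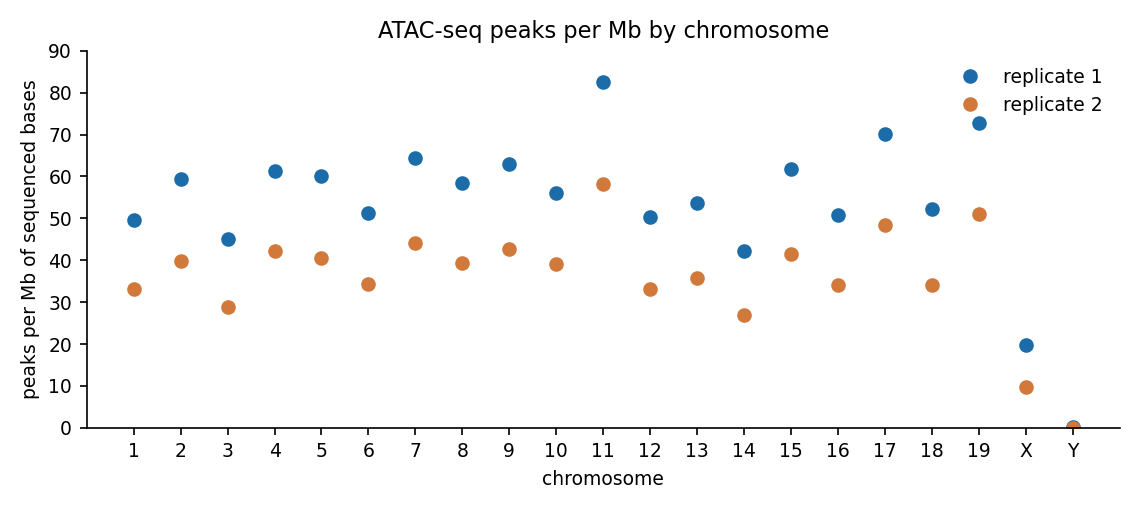
ATAC-seq peaks per Mb of sequenced bases for each chromosome, with a point for each replicate. Chromosome 11 is highest in both replicates (82.5 and 58.1), and X (19.7 and 9.64) and Y are lowest.

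Along the chromosomes open sites were clustered. Of 27268 windows of 100 kb, 6355 held no summit in replicate 1 and 12491 none in replicate 2, of which 6227 were empty in both. The windows tile all 2725521370 bp of the assembled chromosomes, Y included, of which 2647521431 are not N. An empty window is thus not always sequenced DNA without a peak. The densest 10% of windows held 38.3% and 45% of all summits. The densest window by the lower replicate, chr12:86800001-86900000, had 50 and 41 summits and holds Irf2bpl, a regulator of transcription. The next were windows of chromosome 18 with Cxxc5 and Ube2d2a (41 and 38), of chromosome 7 with Cd3eap, Ercc1, Ercc2, Fosb, Klc3 and Ppp1r13l (40 and 35), of chromosome 3 with Bcar3 (39 and 34) and of chromosome 2 with D630003M21Rik, Rprd1b and Tgm2 (35 and 34). The window of chromosome 7 joins Fosb, a subunit of AP-1, with Ercc1 and Ercc2 of nucleotide excision repair.

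Of the 21938 protein-coding genes, 73.9% in replicate 1 and 69.4% in replicate 2 had 1 or more peaks over the annotated gene, with means of 4.1 and 2.93 peaks a gene. The number followed the length of the gene (Spearman's rho 0.659 and 0.57 across genes, which are not independent) and agreed between replicates (rho 0.905). Genes with 50 or more peaks numbered 66 and 29. Of the 10 genes with the most peaks in each replicate 8 were shared.

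The gene richest in open sites was Gm20388, on chromosome 8, with 763 and 603 peaks over an annotated span of 4435 kb that holds 71 other protein-coding genes. Fgfr2, which encodes a receptor for fibroblast growth factors, followed with 294 and 216 peaks over an annotated 2961 kb with 29 other protein-coding genes. The counts of these 2 genes thus include peaks at the genes inside their span, and Gse1, next with 90 and 75 peaks, lies inside that of Gm20388.

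The other 7 genes had between 64 and 106 peaks. Zbtb20, a zinc finger repressor, had 95 and 74 peaks, Camta1, a calmodulin-binding activator of transcription, 106 and 71, and the forkhead factor gene Foxp1 86 and 67. Nav2, which encodes a protein of the cytoskeleton, had 82 and 66, and Pde4d, a phosphodiesterase that breaks down cAMP, 102 and 64. 2010111I01Rik had 69 and 65 and Ttc28 68 and 64, the smallest differences between replicates of the 10. Over the 10 genes replicate 1 was 1.06 to 1.59 times replicate 2. The strongest promoter peaks of Nav2 and Pde4d had fold enrichments of 65.1 and 37.6 in replicate 1 and of 11.5 and 13.5 in replicate 2, the widest gaps of the 10. The share of their peaks outside promoters was lowest in 2010111I01Rik, with 47.8% and 52.3%, and highest in Gse1 in replicate 1 (82.2%) and in Ttc28 in replicate 2 (78.1%). Counting peaks outside promoters only kept 6 of the 10 genes, with 2010111I01Rik, Foxp1, Pde4d and Ttc28 lost, and counting only peaks found in both replicates also kept 6, with Nav2 lost in place of Pde4d. Without the 3734 strong peaks of replicate 1 that lack a counterpart all 10 remained.

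Per 10 kb of gene, among the 10159 protein-coding genes of 20 kb or more, the medians were 0.779 and 0.498 peaks and none of the 10 richest genes by number was among the 10 densest. Cxxc5, which encodes a zinc finger protein that binds CpG-containing DNA, was first with 5.88 and 6.19 peaks per 10 kb, from 19 and 20 peaks. Cntnap1, known for its protein at the nodes of myelinated axons, had 6.44 and 5.45, and Mxra7 had 6 and 5.2. Bcl9l, a coactivator of beta-catenin, had 6.54 and 4.47 and was the densest of replicate 1. Aif1l, Ralgds, Kbtbd11, Socs2 (a suppressor of cytokine signalling), Cd9 (a tetraspanin of the cell surface) and E2f2 (a factor of the cell cycle) had between 4.34 and 5.01 in replicate 1 and between 4.23 and 5.38 in replicate 2. In Cxxc5, Aif1l, Kbtbd11 and Cd9 replicate 2 exceeded replicate 1, against the order of the lists as a whole.

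Of the protein-coding genes, 5578 had 0 peaks over the gene in both replicates. The longest were C130026I21Rik (278 kb), Gm7173 (251 kb), Aoah (243 kb), Unc80 (231 kb) and Tex11 (221 kb). Aoah is known from phagocytes, Unc80 encodes a subunit of a sodium leak channel of neurons, and Tex11 acts in meiosis. Unc80 and Gm7173 nevertheless each had 1 promoter peak in both replicates, just outside the annotated gene, with fold enrichments of 12.6 and 14.9 for Unc80.

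A promoter peak was found in 15886 protein-coding genes in replicate 1 (72.4%) and in 15058 in replicate 2 (68.6%), and in 67.8% in both. All 13 MuSC genes had a promoter peak in both replicates, against these shares of 72.4%, 68.6% and 67.8%. The list was chosen with earlier results of these data known, and Pax7 also drives the Cre used for the sort. Over the gene, MuSC genes had medians of 3.15 and 3.05 peaks per 10 kb, against 0.844 and 0.57 over all protein-coding genes. The median fold enrichment of their strongest promoter peaks went the other way, with 9.97 and 8.52 against 13.3 and 12.2 over all protein-coding genes with one. The counts per 10 kb were not matched for gene length.

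**Figure D5:**
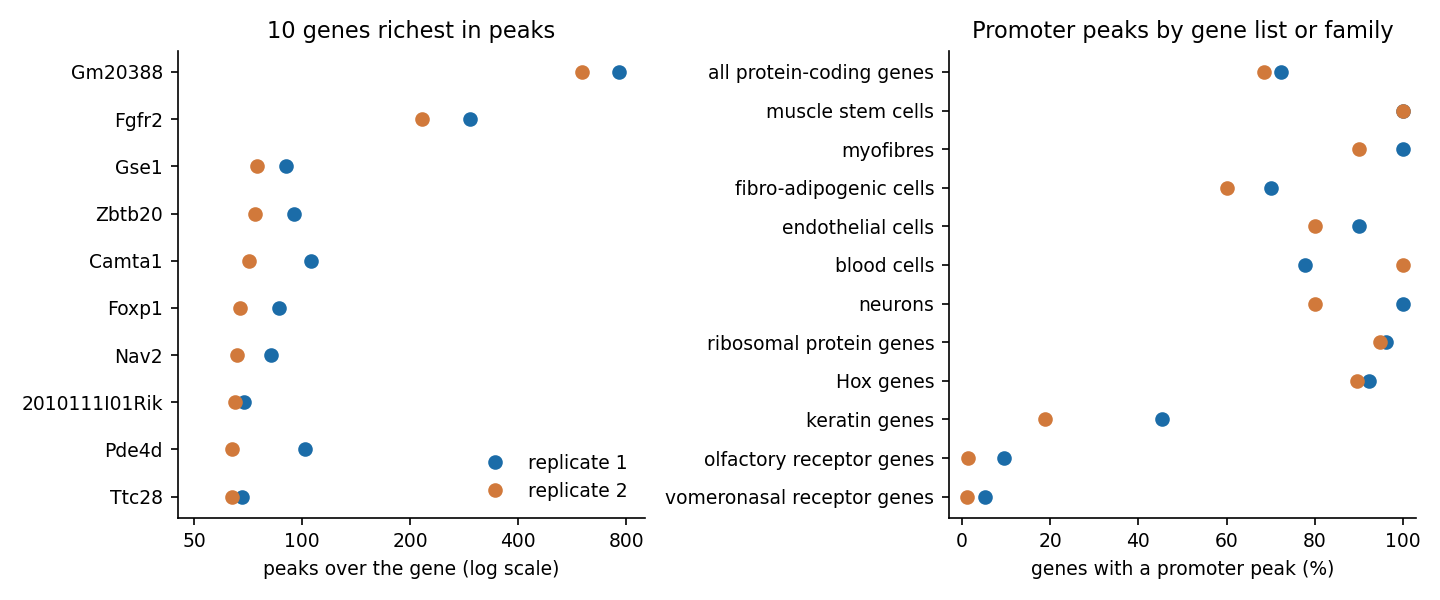
Left, ATAC-seq peaks over each of the 10 genes richest in them (log scale); right, share in % of the genes of each list or family with a promoter peak; points are the 2 replicates. Gm20388 has 763 and 603 peaks, and all 13 MuSC genes have a promoter peak in both replicates, against 72.4% and 68.6% of all protein-coding genes.

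Pax7, the transcription factor gene that marks MuSCs (chr4:139737062-139833528), had 21 and 18 peaks over the gene and 5 and 4 in its promoters. Its strongest promoter peak had fold enrichments of 10.9 and 10.4, with the summit at -192 bp from a start site and no searched motif in the sequence shown. Myod1 had 4 and 4 promoter peaks, the strongest of 8.41 and 8.12 at -200 bp, 568 and 651 bp wide, with the CAGCTG E-box shown. Myf5 had 5 and 7, and its strongest of replicate 1, with 5.72 and an overlapping peak of 5.08 in replicate 2, lay at -2587 bp with an AP-1 match. Its strongest of replicate 2, with 5.97, was another peak. The 3 genes had like values in both replicates, and their promoters were not among the strongest of the lists.

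Among the surface receptors and adhesion molecules of MuSCs, Cdh15 (M-cadherin) had promoter fold enrichments of 13.7 and 13.7, Itga7 (integrin alpha 7) 12.5 and 13.3, Vcam1 12.2 and 11.8, Calcr (the calcitonin receptor, known from quiescent MuSCs) 12.2 and 10.4 and Sdc4 7.9 and 7.01. Notch3 had 5.72 and 5.57 and Heyl, a target of Notch signalling, 11.3 and 8.45. Spry1, an inhibitor of growth factor signalling, was the densest of the list over the gene with 12.9 and 17.2 peaks per 10 kb, from 6 and 8 peaks. Chrdl2, an inhibitor of BMP ligands, had 8.93 and 8.52, and the bHLH gene Msc 9.97 and 10.9. Of the 13 genes, Myf5 and Notch3 had the lowest promoter fold enrichments and Cdh15 the highest in both replicates.

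Genes of other cell types also had promoter peaks, at shares to be read against the 72.4% and 68.6% of all protein-coding genes, and an open promoter does not by itself show expression. Of the 10 myofibre genes 10 in replicate 1 and 9 in replicate 2 had a promoter peak, of the 10 endothelial genes 9 and 8, of the 9 blood genes 7 and 9, of the 10 fibro-adipogenic genes 7 and 6, and of the 10 neuron genes 10 and 8. The fibro-adipogenic share of 70% and 60% was near that of all genes, and with 9 or 10 genes a list no list is set apart by these counts. Over the gene, these lists had medians of 0.824 and 0.788 (myofibres), 1.08 and 1.21 (endothelial), 0.918 and 0.951 (blood), 0.726 and 0.393 (fibro-adipogenic) and 0.823 and 0.292 (neurons) peaks per 10 kb. All were below the MuSC list in both replicates, but the lists were not matched for gene length. The MuSC genes span 2.63 kb (Myod1) to 96.5 kb (Pax7), and the neuron genes 4.23 kb (Neurod1) to 513 kb (Syt1). Ribosomal protein genes, with 4.8 and 3.6 peaks per 10 kb, were above the MuSC list in both replicates. Hox genes, with 5.36 and 2.87, were above it in replicate 1 only. Dcn and Lum, which encode matrix proteoglycans of fibro-adipogenic cells, and Ly6a had 0 peaks in the promoter and over the gene. Other genes of that list were open, with promoter fold enrichments of 16.7 and 16.7 in Pdgfra, 15 and 15.7 in Cd55 and 14.4 and 14.2 in Dpt. These values were above the 13.7 and 13.7 of Cdh15, the highest of the MuSC list. Ptprc, which encodes CD45 of blood cells, had 0 and 1 promoter peaks, Itgam 0 and 1, and Emcn of endothelium 1 and 0. Spi1, which encodes PU.1, had 4 and 3 with fold enrichments of 11.6 and 11.3, and Pecam1 6 and 4 with 10.8 and 13. Whether open sites of other cells in the sort contributed to these was not tested.

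Gene classes and families, chosen after the lists had been examined, differed widely. Over all protein-coding genes the shares with a promoter peak were 72.4% and 68.6%. Of the 79 ribosomal protein genes 96.2% and 94.9% had a promoter peak, of the 40 proteasome subunit genes 92.5% in both, and of the 39 Hox genes 92.3% and 89.7%. Of the 1135 olfactory receptor genes 107 had one in replicate 1 and 15 in replicate 2 (9.43% and 1.32%). Of the 329 vomeronasal receptor genes 17 and 4 had one (5.17% and 1.22%), and of the 53 keratin genes 24 and 10 (45.3% and 18.9%). The shares of these 3 receptor and keratin families were thus higher in replicate 1 by more than the whole list was, whereas those of ribosomal protein and proteasome genes were nearly equal in both. Antisense genes had a promoter peak in 58.9% and 52.5%, long intergenic RNA genes in 37.6% and 32%, and processed pseudogenes in 17.1% and 10.9%.

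Over the whole lists, ATAC-seq peaks were less concentrated in promoters than the peaks of the 3 histone marks mapped in the same kind of cells. The mean promoter share of 40.2% ± 2.9 compared with 82.4% ± 5.18 for H3K4me3, a mark of promoters, with 66.4% ± 6.34 for H3K27ac, known from enhancers and promoters in use, and with 65.8% ± 3.24 for the repressive mark H3K27me3 (SD, n = 2 each). The differences were -42.2 ± 4.2, -26.2 ± 4.93 and -25.6 ± 3.07 percentage points (standard error). Both ATAC-seq values lay below all values of each mark, but 2 against 2 libraries cannot give less than 0.333 in the two-sided exact permutation test, and p was 0.333 for each mark before and after Benjamini-Hochberg adjustment over the 3. With the replicate number as a block, p was 0.5, the smallest that 2 pairs can give. With promoters of 1 kb the difference from H3K27me3 was -11 points. Peaks of H3K4me3 and H3K27ac were wider than those of ATAC-seq, with medians of 1158 and 1027 bp and of 593 and 587 bp, whereas those of H3K27me3 had medians of 176.5 and 181 bp, near the 117 and 185 bp of ATAC-seq.

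Promoter sites were mostly marked and distal ones mostly not. In promoters 52.9% and 57.1% of ATAC-seq peaks touched an H3K4me3 peak of both H3K4me3 replicates, and 36.6% and 40.6% an H3K27ac peak of both. In gene bodies H3K27ac was at 5.21% and 7.14% and between genes at 4.72% and 7.07%. H3K27me3 was at 1.51% and 1.48% of promoter peaks and at 0.156% and 0.144% in gene bodies. None of the 6 ChIP-seq lists touched 37.8% and 32.8% of promoter peaks, 86.2% and 81.4% of gene body peaks and 86.4% and 80% of intergenic peaks. The ChIP-seq lists cover between 0.0626% and 1.03% of the genome, and a site without a listed peak is not shown to lack the mark.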

How the data were processed

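Both ATAC-seq libraries were made with a transposase kit and sequenced as paired-end reads on a NovaSeq X. Per the study's methods and the submitters' processing notes, the authors trimmed reads with Trim Galore 0.6.10, aligned them to mm10 with BWA 0.7.17-r1188, removed poorly mapped and duplicate reads (SAMtools 1.5, Sambamba) and blacklisted regions (bedtools), shifted read ends for the transposase offset (deepTools 3.5.5) and called peaks in each library by itself with MACS2 2.2.6. The deposited lists give the fold enrichment at the summit as a ratio, the -log10 p-value and q-value, and a score made from the latter. The smallest -log10 q listed was 1.73 in replicate 1 and 2.02 in replicate 2. Read numbers are not given in the sources used here, so that no counting interval was computed and the larger number of peaks in replicate 1 cannot be set against depth.

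Peaks were placed against GENCODE M21 on GRCm38.p6 (the sequence of mm10; 55413 genes, 132721 distinct start sites) with Python 3.11.15, numpy 2.4.6 and pandas 2.3.3. A peak with any base within 3 kb of a start site was called promoter, otherwise gene body where it touched an annotated gene, otherwise intergenic, and peaks shared 1 bp or more to count as found in both replicates. Densities used bases that are not N. Motifs were searched in 100 bp either side of the summit. Named genes were the 10 with the most peaks, the 10 densest of 20 kb or more and the 5 longest with none, ranked by the lower replicate, those nearest the 3 strongest shared sites of each class, those in the 5 densest windows of 100 kb, and the marker lists. Members and lists were chosen with earlier results of these data known. The same steps were tested on simulated intervals with known answers. Promoter shares were compared with those of the ChIP-seq lists by a two-sided exact permutation test with Benjamini-Hochberg adjustment. Alternatives included narrower promoters, joined peaks, a -log10 q of at least 5 and each replicate alone. Replicate numbers are shared by the libraries, but nothing in the labels says that a number marks a shared animal or day.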

Additional observations from a re-analysis of the deposited data

Results flagged for a closer look

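Peaks on unplaced or unlocalized sequences of the mouse assembly lie outside all comparisons above, which used the 21 assembled chromosomes, and there were 221 in replicate 1 and 192 in replicate 2. They lay on 22 sequences in each replicate, with median fold enrichments of 4.97 and 4.67 and highest values of 52.5 and 44.7. What drew attention to them was a signal in data left out of the comparisons. No control library was used here.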

How the results depend on the processing

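Over 28 results, 65 of 83 changes of processing left the value the same, and of 33 added after seeing the data 27 did. Same meant within the spread (SD) between replicates, or for counts within 1.5 times. Where that spread was wide, same was easy to reach. For the share of intergenic peaks found in the other replicate, the SD was 21.2 points around a mean of 68%. For the 3 comparisons with histone marks same meant only an unchanged sign. The difference from H3K27me3, -25.6 points, thus counted as the same at -11 with promoters of 1 kb. That from H3K27ac, -26.2 points, did so at -35.2 with a -log10 q of at least 5. Each replicate alone lies within the spread between replicates by construction and is not counted. With promoters of 1 kb the promoter, gene body and intergenic shares were 29.9%, 41.8% and 28.2%, and with protein-coding genes only 33.4%, 32.8% and 33.8%. Joining peaks less than 150 bp apart gave 36.8% in promoters and 36.1% in gene bodies, equal numbers of top peaks gave 33.4% in gene bodies, and peaks found in both replicates gave 44.5%, 32.3% and 23.2%. The median fold enrichment of promoter minus intergenic peaks was 0.0658 and turned to -0.159 without replicate 2, with 0.291 without replicate 1 and 0.514 for 1 kb promoters. Peaks found in both replicates gave 52.3 per Mb on chromosome 11 and 23.8 on chromosome 14 (means 70.3 and 34.6), which remained highest and lowest autosomes. Of the 10 richest genes, 6 remained with peaks outside promoters only, 6 with peaks found in both replicates, and 8 to 10 under the others. Windows of 50 bp gave AP-1 13.3%, CAGCTG 18.1%, SP/KLF 21.6% and ETS 3.49%, and peaks found in both replicates gave CTCF 4.05%, SP/KLF 36.6% and ETS 6.51%. The causes were not tested, except that a narrower promoter or window holds less sequence.

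With the replicate number as a block, the differences in promoter share stayed at -42.2, -26.2 and -25.6 percentage points, with p = 0.5 in the exact sign-flip test for each mark. The numbers were not shown to pair samples: replicate 1 minus 2 was -4.1 points for ATAC-seq, -7.32 for H3K4me3, -8.96 for H3K27ac and 4.58 for H3K27me3. With 2 libraries of unknown depth, each alone gives the values already printed per replicate, and a site missing from a list is not shown to be closed.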
